A study of Mus musculus with 3 samples.

Results

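The transcripts of 7 adhesion genes were followed through the cell types of the mouse fetal ovary. They were the cadherins Cdh1 (E-cadherin), Cdh2 (N-cadherin), Cdh3 (P-cadherin), Cdh5 (VE-cadherin) and Cdh11 (OB-cadherin), the epithelial adhesion molecule Epcam, and Ctnnb1 (beta-catenin). They are 7 of the 18738 genes in the count tables. The choice was by name, as adhesion genes of germ, epithelial, endothelial and mesenchymal cells, and was made with earlier results of these data known. The samples were 3 frozen lots (26, 29 and 30) of fetal ovarian somatic cells (FOSCs), each pooled at E12.5 from the embryos of 10 pregnant CD1 females (Charles River, strain code 022). The mesonephros had been cut away, the ovaries dissociated in trypsin, and the cells that bound beads against SSEA1, a germ cell antigen, and CD31, an endothelial one, held back on a magnetic column, of which the flow-through was kept. The cells had been stored in Cell Banker 2, thawed, and profiled with the 10X Genomics 3′ v3 kit, which counts unique molecular identifiers (UMIs), each standing for 1 captured transcript. All lots belong to 1 condition, so the comparisons are between cell types within the lots, and the lots are the replicates (n = 3).

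Cadherins are calcium-dependent receptors that bind their like on a neighbouring cell, and beta-catenin ties their tails to the actin cytoskeleton and also carries the Wnt signal into the nucleus. E-cadherin and P-cadherin are typical of epithelia, N-cadherin of neural, supporting and many mesenchymal cells, VE-cadherin of endothelium and cadherin 11 of mesenchyme, while Epcam is a calcium-independent adhesion molecule of epithelia that is also present on embryonic stem cells and fetal germ cells. In the fetal ovary the germ cells lie in cords among pre-granulosa cells, under a surface epithelium and between strands of stroma.

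The promoter of Epcam is shown because Epcam set germ cells apart from the large somatic classes (pre-granulosa, epithelial and stromal). Mesonephric tubule cells, a small class, had more Epcam than germ cells. A further reason is that the Snail and Zeb repressors of epithelial genes bind the E-box letters CAGGTG. Levels of some of these repressors are given further on. The window holds the 250 bases before the start site in RefSeq (GRCm38.p6, chr17:87635729-87635978, plus strand), with CAGGTG on either strand in capitals.
Epcam: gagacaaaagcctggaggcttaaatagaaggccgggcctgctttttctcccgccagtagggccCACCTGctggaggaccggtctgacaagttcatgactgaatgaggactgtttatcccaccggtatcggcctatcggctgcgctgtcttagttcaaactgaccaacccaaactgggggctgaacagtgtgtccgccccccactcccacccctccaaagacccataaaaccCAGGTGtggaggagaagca
It holds 2 such matches, which begin at positions -187 and -19 relative to the start site. Of 32851 RefSeq promoter windows of this length, 17.2% hold at least 1 match and 2.06% hold at least 2. The GC content of the Epcam window is 56.4%, and the median of all windows is 52.4%. The other member with an entry was Ctnnb1, and neither of its 2 windows (GC content 74.8% and 74.4%) holds a match. A match describes the letters and is not a binding site.

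All 7 are protein-coding genes in the GRCm38 assembly with the GENCODE M21 annotation. Cdh3 (ENSMUSG00000061048, chr8:106510891-106557297) and Cdh1 (ENSMUSG00000000303, chr8:106603351-106670246) are neighbours on the plus strand, 46053 bases apart with 2 annotated genes between them. Cdh5 (ENSMUSG00000031871, chr8:104101625-104144511, plus strand) and Cdh11 (ENSMUSG00000031673, chr8:102632095-102785642, minus strand) lie on the same chromosome. Epcam (ENSMUSG00000045394, chr17:87635979-87651129) and Ctnnb1 (ENSMUSG00000006932, chr9:120929216-120960507) are on the plus strand, and Cdh2 (ENSMUSG00000024304) is on the minus strand of chromosome 18. The 3′ end of Ctnnb1 shares 5157 bases with Ulk4, a counted gene on the opposite strand. The strand setting of the counting is unknown, so the Ctnnb1 count is uncertain there. Antisense genes outside the count tables overlap Cdh2 (946 bases), Cdh5 (4249 bases) and Ctnnb1 (1589 bases).

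The tables held 87494974 to 141920060 UMIs per lot, and 28971 of 29103 barcodes passed the cell filters, with a median of 8949 to 11595 UMIs per cell in a lot. Pairs of lots shared 19 to 30 kept barcodes. Clustering without the 7 genes gave 21 clusters, of which 18 were named from marker lists that hold none of them. The names are rebuilt, carry the ending "-like" and may differ from those of the study. Pre-granulosa-like (11910 cells), stromal-like (6544) and epithelial-like cells (6004) are called the soma below. Germ-like (1473), Sertoli-like (393), endothelial-like (348), macrophage-like (135), mesonephric-tubule-like (78), red-blood-cell-like (77) and neural-crest-like cells (53) were smaller classes. Genes kept out of the clustering were used to check the names. Ddx4, a germ cell RNA helicase, was at 239 ± 4.69 CPM (UMIs of the gene scaled to the UMI total of the class in a lot, mean ± SD over 3 lots) in germ-like and 1.59 ± 0.715 in stromal-like cells. Pecam1, which encodes CD31, was at 315 ± 173 CPM in endothelial-like and 51.9 ± 4.63 in germ-like cells. Of the pre-granulosa-like clusters, number 3 drew 2407 of its 2515 cells from lot 30 and had the stress genes Hspa1a and Hspa1b among its leading genes. Scrublet marked 13.5% of germ-like, 16.4% of endothelial-like and 0.898% of pre-granulosa-like cells as doublets, which were kept, and some values are also given without them.

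Germ-like cells carried Epcam and Cdh1 and less of Cdh2, Cdh3 and Cdh11 than the soma. Epcam was at 227, 315 and 232 CPM in the germ-like cells of lots 26, 29 and 30. In epithelial-like cells it was at 30.6, 25.7 and 24.6 CPM. It was at 16.1, 16.9 and 14.3 CPM in pre-granulosa-like and at 5.81, 6.76 and 5.40 CPM in stromal-like cells. Every germ-like sum was above every sum of the soma, and the 3 somatic classes did not overlap each other either. The test set germ-like cells against the mean of the 3 somatic classes on the log2 scale, which is not the mean of their CPM. For Epcam, edgeR's quasi-likelihood fit gave a log2 fold change (log2FC) of 4.22 with a standard error (SE) of 0.11, or 18.6-fold. Its adjusted p was 1.15e-22 after Benjamini-Hochberg correction over 13280 genes.

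Cdh1 was a rarer transcript that also set germ-like cells apart from the soma. It was at 14.5, 17.5 and 13.7 CPM there, from 262, 120 and 136 UMIs in lots 26, 29 and 30. In epithelial-like cells, which had the most of the classes called the soma, it was at 1.14, 0.417 and 0.776 CPM. Mesonephric-tubule-like cells, described below, were at 12.7, 4.91 and 11.7 CPM. Of its 652 UMIs in kept cells, 79.4% were in germ-like cells, which held 9.82% of all UMIs. The difference from the soma was 47.4-fold (log2FC 5.57, SE 0.23, adjusted p = 1.34e-17), and its log2FC lay between 5.23 and 6.07 under the 14 alternatives run.

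Of the 7 members, 2 were higher and 3 lower in germ-like cells, beside 36.5% of all genes tested that were higher and 40.2% that were lower (76.8% in all), so that 5 called of 7 is close to the background. Cdh11 was the furthest below the soma. It was at 13.4, 8.04 and 12.6 CPM in germ-like cells, and its mean CPM over the somatic classes was 117. Its log2FC in the fit, where the somatic mean is taken on the log2 scale, was -2.83 (SE 0.20, adjusted p = 4.94e-13). Without the called doublets its germ-like level was 5.77 CPM and its log2FC -3.67. Cdh2 was at 14.6, 10.4 and 15.2 CPM in germ-like cells, below every sum of the somatic classes (log2FC -1.24, SE 0.11, adjusted p = 9.99e-11). Cdh3 was lower as well (log2FC -0.72, SE 0.14, adjusted p = 2.62e-05). Its germ-like sums, from 10.3 to 12.9 CPM, overlapped those of pre-granulosa-like (12.3 to 13.9) and stromal-like cells (10.00 to 10.9) and lay below those of epithelial-like cells, which were at 44.3 CPM or more.

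Ctnnb1 and Cdh5 were not called between germ-like cells and the soma. Ctnnb1 was at 177, 153 and 185 CPM in germ-like cells against a somatic mean of 196 (log2FC -0.22, SE 0.11, adjusted p = 0.0624). With the lot as a block the adjusted p of Ctnnb1 was 0.00139. Cdh5 had 28, 0 and 14 UMIs in the germ-like cells of lots 26, 29 and 30 (log2FC 0.19, SE 0.48, adjusted p = 0.720).

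**Figure D1:**
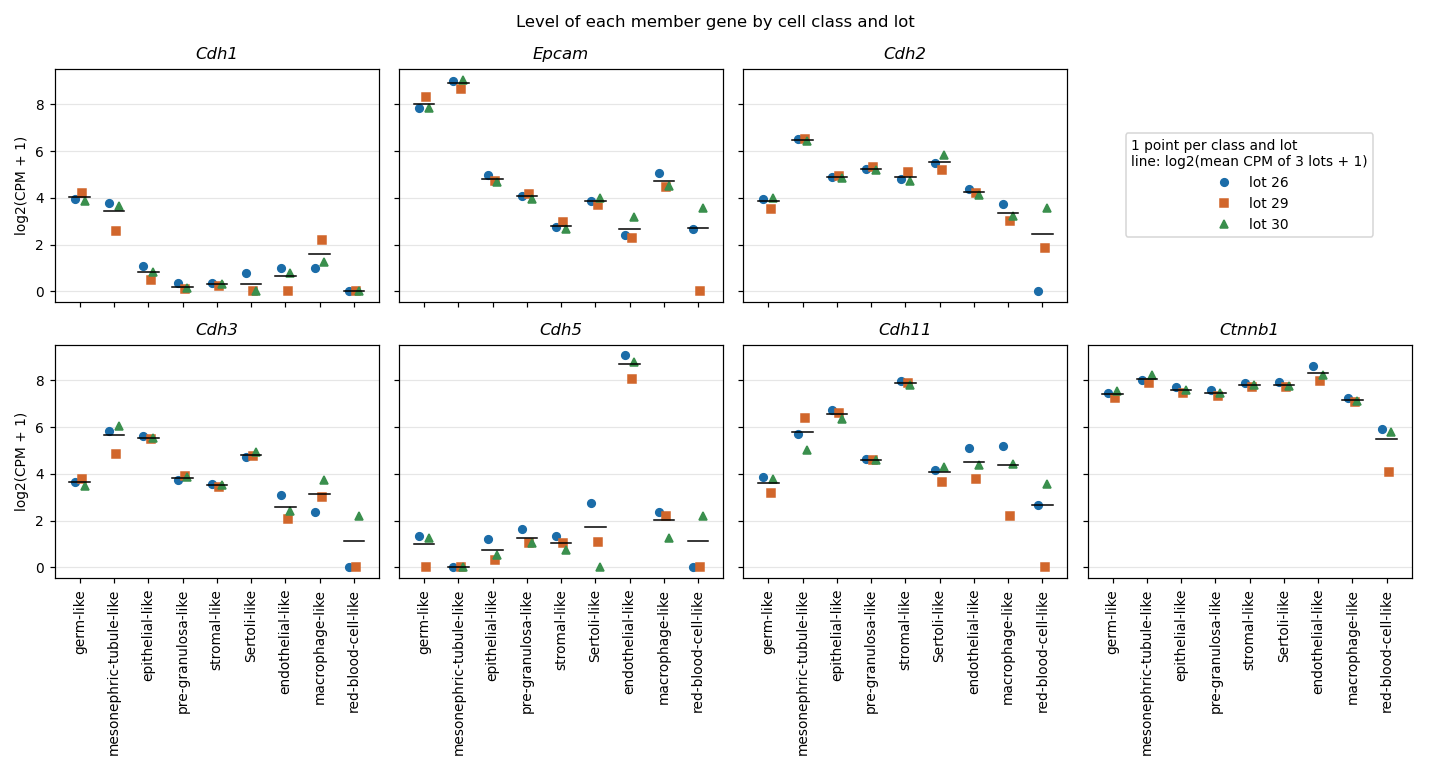
Level of each member gene as log2(CPM + 1) on the vertical axis in 9 cell classes on the horizontal axis, with 1 point per class and lot and a line for the mean of 3 lots. Cdh1 and Epcam stand highest in germ-like and mesonephric-tubule-like cells, Cdh5 in endothelial-like and Cdh11 in stromal-like cells, while Ctnnb1 lies within 135 and 394 CPM in every sum but those of red-blood-cell-like cells.

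The CPM of a class does not tell fewer cells with a transcript from less of it per cell, so the shares of cells with a UMI were also examined. At least 1 Epcam UMI was found in 93.5, 98.2 and 94.6% of germ-like cells of lots 26, 29 and 30, with a median of 5 UMIs per cell. Cells of the soma were shallower, with a median of 13331.5 UMIs in epithelial-like, 10186 in pre-granulosa-like and 9253.5 in stromal-like cells against 21173 in germ-like cells. Each cell was therefore thinned to 4000 UMIs, which left out 9 germ-like, 30 epithelial-like, 48 pre-granulosa-like and 147 stromal-like cells. At that depth 58.8% ± 4.55 of germ-like cells had an Epcam UMI (SD over 3 lots), as did 9.26% ± 1.37 of epithelial-like, 6.03% ± 0.795 of pre-granulosa-like and 2.08% ± 0.341 of stromal-like cells. Endothelial-like cells, which should lack Epcam, were at 2.13% ± 1.17 with a median depth of 14760.5 UMIs. The epithelial-like and pre-granulosa-like shares were above this in every lot, and the stromal-like share was not. Without the called doublets, however, Epcam was at 1.85 CPM in endothelial-like and 4.79 in stromal-like cells, where with them it was at 5.40 ± 2.25 and 5.99 ± 0.700 CPM.

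A Cdh1 UMI was found in 23.6, 28.8 and 24.3% of germ-like cells before thinning and in 3.49, 8.33 and 5.74% after it. In the soma the thinned shares were 0.193% ± 0.0926 in epithelial-like, 0.0760% ± 0.0457 in stromal-like and 0.0432% ± 0.0508 in pre-granulosa-like cells. None of the 77 red-blood-cell-like cells had a Cdh1 UMI. At so few UMIs a single germ-like cell without Cdh1 cannot be told from one whose Cdh1 was not captured.

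The share of cells with UMIs of a pair of members was set beside the product of their single shares. With 4000 UMIs per cell, 49 of 1464 germ-like cells had both Cdh1 and Epcam, a mean of 3.79% ± 1.92 over the lots where the product was 3.502%. Cdh2 and Cdh11 were found together in 5.59% ± 0.882 of stromal-like cells (product 4.60%) and in 2.60% ± 0.188 of epithelial-like cells (product 2.44%). Both Cdh1 and Cdh2 were found in 7 germ-like cells. These are descriptions of sparse counts, with no test.

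Mesonephric-tubule-like cells, of an epithelium that belongs to the organ cut away before dissociation, were the other class with Epcam and Cdh1. The class rests on 23, 38 and 17 cells of lots 26, 29 and 30 and entered no contrast of its own. Epcam was at 504, 405 and 529 CPM there, above every germ-like sum. Cdh1 was at 12.7, 4.91 and 11.7 CPM, from only 5, 3 and 3 UMIs. These sums were below every germ-like sum, but those of lots 29 and 30 lay at the floor of 3 counts. The thinned shares of cells with a Cdh1 UMI were alike, at 5.74% ± 3.03 here and 5.86% ± 2.42 in germ-like cells. These cells also had more Cdh2 than any other tested class, at 91.1, 90.1 and 85.5 CPM, and Cdh3 at 55.7, 27.8 and 66.1 CPM. No Cdh5 UMI was found in them, which with a floor of 3 counts per lot allows up to 7.59, 4.91 and 11.7 CPM. In lot 29 the class was uneven. There 16 of 38 cells (42.1%) had no Epcam UMI, against 1 of 23 (4.35%) in lot 26 and 1 of 17 (5.88%) in lot 30.

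Within the soma, Cdh3 and Epcam were higher and Cdh11 lower in epithelial-like than in stromal-like cells. Cdh3 was at 48.3, 44.3 and 44.8 CPM in epithelial-like cells of lots 26, 29 and 30. In stromal-like cells it was at 10.9, 10.00 and 10.7 CPM (log2FC 2.20, SE 0.15, adjusted p = 1.58e-12). Epcam was higher in epithelial-like cells too (log2FC 2.26, SE 0.17, adjusted p = 9.59e-12). Cdh1 was also called as higher, but at under 1.2 CPM, from 72 UMIs in all epithelial-like and 17 in all stromal-like cells (log2FC 1.76, SE 0.43, adjusted p = 0.00241), and without lot 30 its adjusted p was 0.0684. Cdh11 was at 247, 234 and 222 CPM in stromal-like and at 107, 95.6 and 80.6 CPM in epithelial-like cells (log2FC -1.23, SE 0.19, adjusted p = 9.03e-06). The classes overlapped in none of these 4 genes. In this comparison 3 of 7 members were higher and 1 lower, beside 13.9% and 15.8% of all genes tested (29.7% in all). With the lot as a block the genes called rose from 3944 to 6760.

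Cdh3 set the epithelial-like class apart from both other large somatic classes. Its pre-granulosa-like sums were 12.3, 13.9 and 13.4 CPM, and epithelial-like cells were higher (log2FC 1.77, SE 0.14, adjusted p = 3.18e-11). Thinned to 4000 UMIs, 17.1% ± 1.84 of epithelial-like cells had a Cdh3 UMI, against 5.04% ± 0.237 of pre-granulosa-like and 3.55% ± 0.0808 of stromal-like cells. Endothelial-like cells were at 0.771% ± 1.33. Sertoli-like cells, which resemble the supporting cells of the testis, had Cdh3 at 25.1, 26.4 and 29.5 CPM, between the epithelial-like and the pre-granulosa-like values. A UMI of any of 4 Y-linked genes was found in 83.5%, 75.2% and 93.8% of Sertoli-like cells in lots 26, 29 and 30. The shares in pre-granulosa-like cells were 0.322%, 0.786% and 0.0438%. The paper describes a small contaminating population of Sertoli cells in all lots and did not analyze it further.

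Cdh11 was likewise higher in epithelial-like than in pre-granulosa-like cells, which were at 24.1, 22.9 and 23.4 CPM (log2FC 1.98, SE 0.20, adjusted p = 3.02e-09). Epcam was higher too (log2FC 0.75, SE 0.15, adjusted p = 0.000184), and so was Cdh1, with 19 UMIs in all pre-granulosa-like cells (log2FC 2.301, SE 0.41, adjusted p = 4.99e-05). Cdh2 was at 28.6, 29.8 and 27.9 CPM in epithelial-like and at 36.7, 39.3 and 35.6 CPM in pre-granulosa-like cells (log2FC -0.39, SE 0.12, adjusted p = 0.00707), and without lot 30 its adjusted p was 0.0832. Cdh5 was under 2.2 CPM in every sum of both classes, and its call (log2FC -1.17, SE 0.44, adjusted p = 0.0327) was lost with DESeq2 (adjusted p = 0.210), without lot 29 or lot 30, without normalization factors and with only these classes in the fit (adjusted p = 0.0517 to 0.189). Thus 4 of 7 members were higher and 2 lower in epithelial-like cells, beside 21.5% and 22.7% of all genes (44.2% in all).

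Between pre-granulosa-like and stromal-like cells the widest gap was in Cdh11 (log2FC -3.21, SE 0.21, adjusted p = 1.99e-13). Epcam was higher in pre-granulosa-like cells (log2FC 1.51, SE 0.16, adjusted p = 8.08e-09). Cdh2 was higher (log2FC 0.50, SE 0.12, adjusted p = 0.000859), a call lost when the cells were clustered at resolution 0.4 (log2FC 0.093, adjusted p = 0.524). At that resolution the stromal-like class held only clusters of 1939 and 1674 cells. A cluster of 3343 cells, with Insl3, Ngfr and Rprml among its leading genes, stayed unnamed and was not in the class. Cdh3 was higher (log2FC 0.43, SE 0.15, adjusted p = 0.0160), a call lost without lot 29 (adjusted p = 0.0538) or lot 30 (adjusted p = 0.121). Ctnnb1 was not called (log2FC -0.26, SE 0.13, adjusted p = 0.0999), and with the lot as a block its adjusted p was 0.00203. Of the members 3 were higher and 1 lower, beside 24.0% and 23.3% of all genes (47.4% in all).

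**Figure D2:**
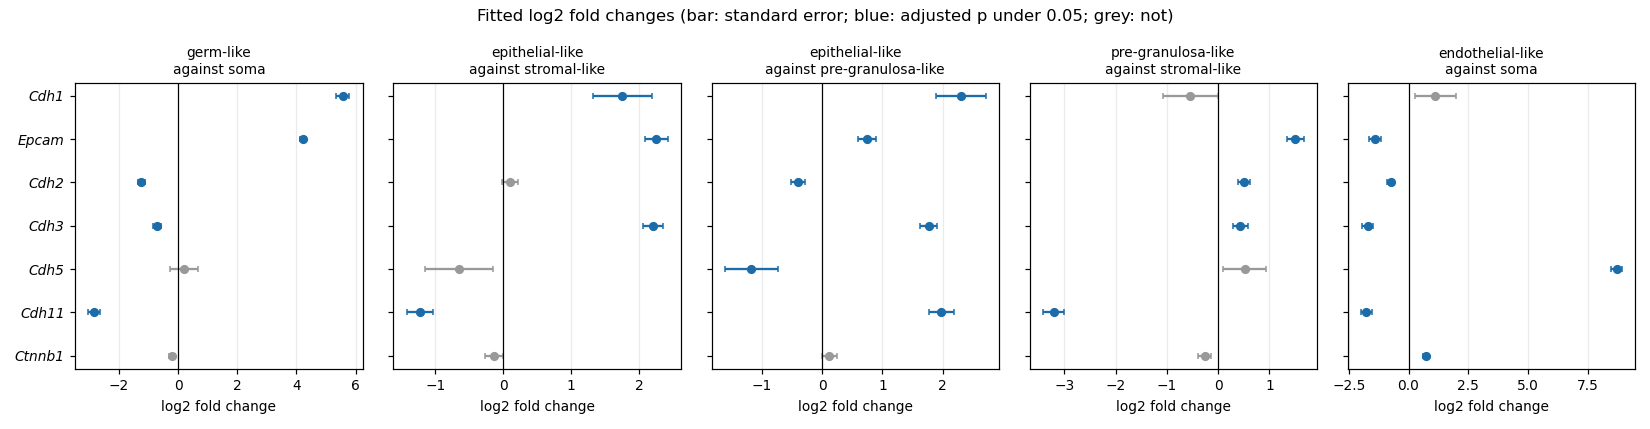
Fitted log2 fold change of each member on the horizontal axis, with its standard error as a bar, in 5 comparisons of cell classes, each with its own scale. Blue points have an adjusted p under 0.05 and grey points do not. Cdh11 lies to the left of 0 in every comparison but epithelial-like against pre-granulosa-like cells, and Ctnnb1 is called only in the endothelial-like comparison.

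Levels were not even within the classes. Among the stromal-like clusters Cdh2 ranged from 9.05 ± 1.5 CPM in cluster 2 through 25.98 ± 2.66 in cluster 4 and 49.4 ± 6.08 in cluster 10 to 60.2 ± 15.3 in cluster 11. Cluster 2, with Myh8 and Sparcl1 among its leading genes, was below all others in every lot. Without it the Cdh2 call between pre-granulosa-like and stromal-like cells was lost (log2FC 0.08, adjusted p = 0.579), and epithelial-like cells were lower in Cdh2 than stromal-like cells (log2FC -0.31, adjusted p = 0.0473), where the whole class gave no call (log2FC 0.10, SE 0.12, adjusted p = 0.566). This alternative was chosen after the cluster values were seen.

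Cdh11 followed another order among the same clusters. It was at 128 ± 16.0 CPM in cluster 2, 220 ± 20.8 in cluster 4, 302 ± 50.9 in cluster 11 and 520 ± 50.6 in cluster 10, which was led by Lum, a proteoglycan gene of fibroblasts, and Agtr2. These ranges over the lots did not overlap. Epithelial-like clusters also spread widely, from 39.5 ± 4.61 CPM in cluster 5, led by genes such as Upk3b and Krt7 of the surface epithelium, to 227 ± 48.3 in cluster 9, led by genes such as Pappa2, Krt15 and Hoxd11. The lowest lot of cluster 9, at 176 CPM, was above the highest lot of any other epithelial-like cluster (101 CPM) and of stromal-like cluster 2 (144 CPM). Cluster 9 had the most Cdh3 of the epithelial-like clusters, at 65.2 ± 11.04 CPM, and its lots did not overlap the others. Epcam was at 42.8 ± 3.93 CPM in cluster 8, whose leading genes are those of mitosis, and at 15.2 ± 5.63 CPM in cluster 9 and 16.6 ± 2.22 in cluster 6, whose ranges overlapped. Clusters were not tested against each other.

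Among the pre-granulosa-like clusters Cdh2 was at 28.7 ± 3.04 CPM in cluster 0, 45.8 ± 8.76 in cluster 1 and 47.1 ± 10.4 in cluster 3. Every lot of cluster 0 was below every lot of the other clusters. Cdh11 was at 23.6 ± 1.41, 21.4 ± 2.00 and 21.01 ± 6.60 CPM in clusters 0, 1 and 3, with overlapping ranges.

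**Figure D3:**
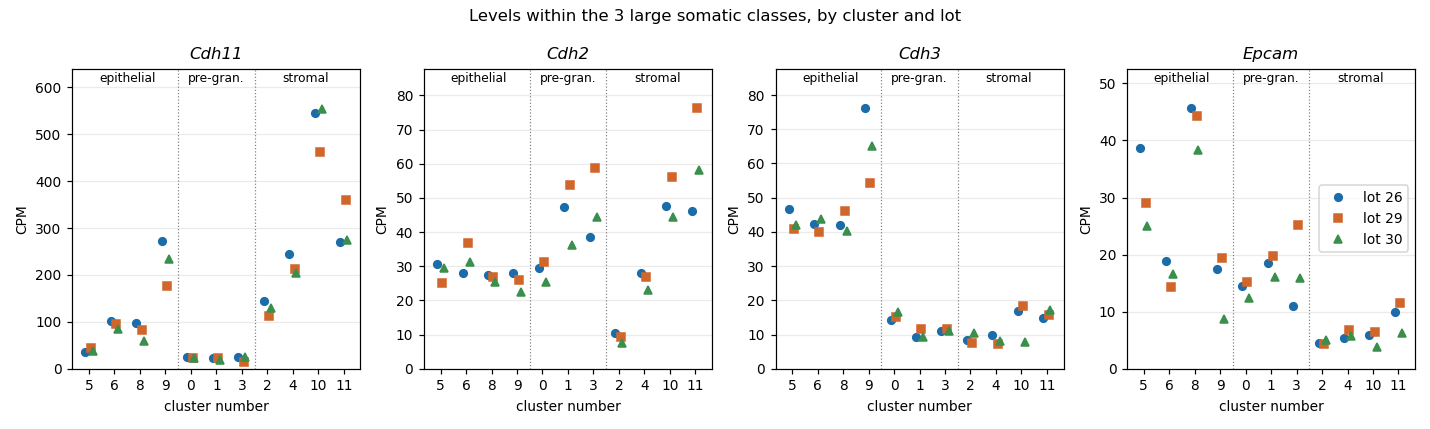
CPM of Cdh11, Cdh2, Cdh3 and Epcam on the vertical axes, each with its own scale from 0, in the 11 clusters of the epithelial-like, pre-granulosa-like and stromal-like classes on the horizontal axis, with 1 point per cluster and lot. The mean of Cdh11 is 520 CPM in stromal-like cluster 10 and 227 CPM in epithelial-like cluster 9, and Cdh2 is lowest in stromal-like cluster 2.

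Endothelial-like cells were the class with Cdh5. It was at 539, 266 and 444 CPM in lots 26, 29 and 30, and at 5.73 CPM or less in every sum of the other tested classes (log2FC 8.71, SE 0.23, adjusted p = 2.18e-21 against the soma). A Cdh5 UMI was found in 98.9, 84.1 and 96.5% of endothelial-like cells and in 83.8, 63.2 and 80.7% after thinning. The thinned share among pre-granulosa-like cells, a type that should lack the gene, was 0.553% ± 0.208. Lot 29 was the lowest in endothelial-like cells on all of these measures, and Pecam1 was lowest there as well, at 495, 150 and 299 CPM in lots 26, 29 and 30.

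Ctnnb1 was also higher in endothelial-like cells than in the soma, and the other called members were lower. Ctnnb1 was at 394, 252 and 302 CPM there (log2FC 0.71, SE 0.10, adjusted p = 1.87e-06). Cdh3 (log2FC -1.71, SE 0.24, adjusted p = 9.22e-07) and Cdh2 (log2FC -0.75, SE 0.15, adjusted p = 0.000175) were lower. So were Cdh11 (log2FC -1.77, SE 0.22, adjusted p = 1.80e-07) and Epcam (log2FC -1.40, SE 0.26, adjusted p = 6.60e-05), at -2.61 and -2.63 on the log2 scale without the called doublets. Of the members 2 were higher and 4 lower, beside 19.8% and 22.0% of all genes tested (41.8% in all).

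Ctnnb1 was found in every class. In red-blood-cell-like cells it was at 15.9 to 59.5 CPM. In the order of the mean it was at 316 ± 72.0 CPM in endothelial-like, 264 ± 31.8 in mesonephric-tubule-like, 223 ± 16.2 in stromal-like, 222 ± 19.4 in Sertoli-like, 192 ± 16.7 in epithelial-like, 173 ± 15.6 in pre-granulosa-like, 172 ± 17.0 in germ-like and 141 ± 7.06 in macrophage-like cells. The ranges of neighbours in this order overlapped except those of germ-like and macrophage-like cells.

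Cdh2 and Cdh11 took different orders over the tested classes. Cdh2 was at 88.9 ± 2.97 CPM in mesonephric-tubule-like, 45.0 ± 10.1 in Sertoli-like, 37.2 ± 1.88 in pre-granulosa-like, 28.8 ± 0.963 in epithelial-like, 28.5 ± 4.04 in stromal-like, 18.0 ± 1.74 in endothelial-like, 13.4 ± 2.62 in germ-like, 9.26 ± 2.77 in macrophage-like and 4.54 ± 5.72 in red-blood-cell-like cells. Neighbours overlapped between Sertoli-like and pre-granulosa-like, between epithelial-like and stromal-like, and among the last 3 classes. Without the called doublets the macrophage-like level was 4.90 CPM. Neural-crest-like cells, too few in lot 30 to be tested, had Cdh2 at 76.1 ± 21.2 CPM. Cdh11 was at 235 ± 12.6 CPM in stromal-like, 94.4 ± 13.2 in epithelial-like and 54.5 ± 25.6 in mesonephric-tubule-like cells, of which the last 2 overlapped, and its mean was 23.5 CPM or less in every other tested class. Red-blood-cell-like cells, which should lack cadherins, had a Cdh11 UMI in 3.34% ± 2.90 and a Cdh2 UMI in 4.16% ± 4.88 of thinned cells, at a median depth of 9210 UMIs. The germ-like shares of 3.77% ± 0.689 for Cdh11 and 5.83% ± 1.86 for Cdh2 were within the spread of these. That spread is wide, as it rests on 77 cells with 4 UMIs of each gene before thinning. In macrophage-like cells the thinned shares were 3.73% ± 4.66 for Cdh11 and 0.995% ± 1.72 for Cdh2. For Cdh2 the lowest germ-like lot, at 4.17%, was above the highest macrophage-like lot, at 2.99%.

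Macrophage-like cells carried Epcam at 32.0, 21.4 and 22.1 CPM, and the germ cell genes Dazl and Ddx4 at 65.0 ± 10.0 and 11.9 ± 8.18 CPM. Without the called doublets Epcam was at 9.61 CPM in them. The part of germ cell RNA in the macrophage-like value was not tested.

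Germ cells of the fetal ovary enter meiosis with Stra8, a gene induced by retinoic acid. Germ-like cells with 2 or more Stra8 UMIs (633, 278 and 342 cells of lots 26, 29 and 30) were compared with those with none (82, 40 and 29 cells). Epcam was at 215, 294 and 224 CPM with Stra8 and at 312, 453 and 316 CPM without. Cdh1 was at 13.1, 16.8 and 12.02 CPM with Stra8 and at 19.9, 20.03 and 27.8 CPM without. Both genes were lower with Stra8 in 3 of 3 lots, and neither passed the test (Epcam log2FC -0.60, SE 0.20, adjusted p = 0.0587, and Cdh1 log2FC -0.72, SE 0.25, adjusted p = 0.0728, over 11074 genes). The sets come from the same lots, a pairing that this fit left out. With the lot as a block the adjusted p was 1.27e-11 for Epcam and 0.0109 for Cdh1. Over all alternatives it ranged from 1.27e-11 to 0.203 for Epcam and from 0.0109 to 0.442 for Cdh1.

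Cdh3 was the 1 member of 6 tested that was called, beside 14.0% of all genes (7.25% higher and 6.75% lower). It was at 10.1, 11.7 and 9.32 CPM with Stra8 and at 24.8, 18.8 and 15.3 CPM without (log2FC -1.03, SE 0.26, adjusted p = 0.0162). The call was lost without lot 26 (log2FC -0.78, adjusted p = 0.290) or lot 30 (log2FC -1.09, adjusted p = 0.0648). Cdh2 did not pass the test, at 15.2, 11.7 and 16.3 CPM with and 11.01, 1.25 and 4.17 CPM without Stra8, the latter from 16, 1 and 3 UMIs (log2FC 1.098, SE 0.39, adjusted p = 0.0768, and 0.00624 with the lot as a block). Its log2FC was 2.34 without lot 26 and 0.81 without lot 29, and without a low-count filter its adjusted p was 0.00931. Ctnnb1 (log2FC -0.02, SE 0.13, adjusted p = 0.942) and Cdh11 (log2FC 0.03, SE 0.30, adjusted p = 0.970) were not called, and Cdh5 was too low to be tested. Genes called numbered 1550, with 3068 under the block, 322 without lot 26 and 401 without lot 30.

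The sets were also compared in depth and in Y-linked UMIs. The median germ-like cell with Stra8 had 22185, 18206 and 23970 UMIs in lots 26, 29 and 30, and the median cell without it 16226, 17910 and 20735. A UMI of any of 4 Y-linked genes was found in 8 of 633, 7 of 278 and 2 of 342 cells with Stra8 (1.26%, 2.52% and 0.585%). Without Stra8 it was found in 4 of 82, 3 of 40 and 0 of 29 cells (4.88%, 7.50% and 0%). The 95% confidence intervals of the 2 sets overlapped in every lot. The part of depth and of Y-linked cells in these values was not tested.

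**Figure D4:**
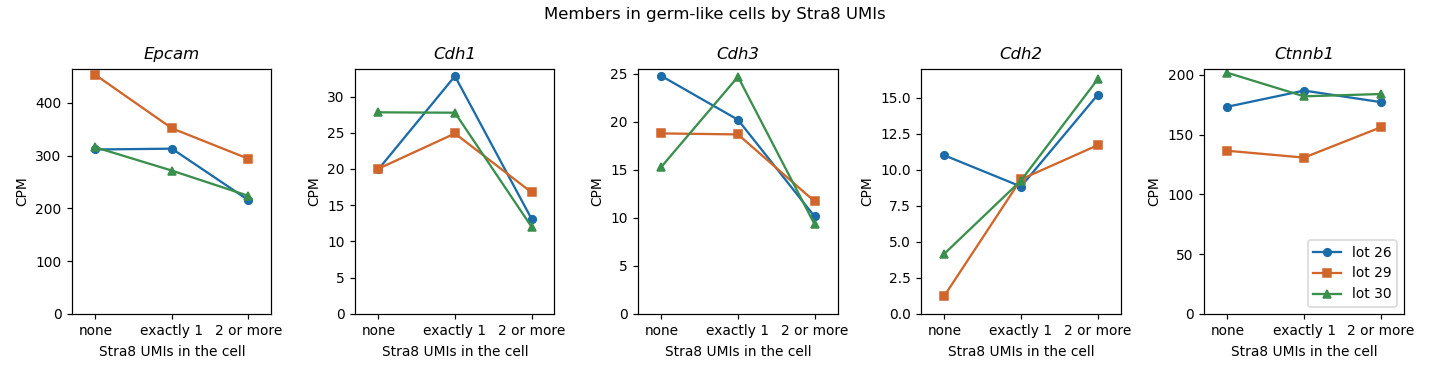
CPM of 5 members on the vertical axes, each from 0, in germ-like cells with no, exactly 1 or at least 2 Stra8 UMIs on the horizontal axis, with 1 line per lot. In each lot Epcam, Cdh1 and Cdh3 are lower and Cdh2 is higher in cells with 2 or more Stra8 UMIs than in cells with none, and Ctnnb1 shows no common direction.

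Other genes of the junctions and of the epithelial to mesenchymal transition (EMT) were examined in 4 lists. In germ-like cells against the soma, 9 of 14 tight junction genes tested were higher and 3 lower, with a median log2FC of 1.45 where that of all genes was -0.07, beside the 36.5% and 40.2% of all genes that were higher and lower. Cldn7, a claudin of epithelial tight junctions, was at 27.4 ± 2.73 CPM in germ-like cells and at a mean of 0.471 CPM in the soma (log2FC 5.86, SE 0.20, adjusted p = 2.03e-19). Of 12 EMT regulators, 5 were higher and 6 lower (median -0.26). Esrp1, a splicing factor of epithelial cells, was at 24.4 ± 1.19 CPM in germ-like cells and at 0.166 CPM in the soma (log2FC 7.01, SE 0.27, adjusted p = 2.57e-18). The repressors Snai2 (log2FC -2.84, SE 0.19, adjusted p = 9.62e-14) and Zeb2 (log2FC -2.35, SE 0.20, adjusted p = 1.81e-11) were lower. Snai1 was at 1.21 ± 0.572 CPM in germ-like cells, between its pre-granulosa-like (0.779 ± 0.271) and epithelial-like levels (1.69 ± 0.259). Snai3 was at 1.11 ± 0.172 CPM in germ-like cells, and its mean was 0.0922 CPM or less in each somatic class. The part of these repressors in the Epcam level was not tested. Of 13 catenins and nectins, which link or accompany the cadherins, 4 were higher and 8 lower (median -0.74), among the latter Jup, or plakoglobin (log2FC -2.34, SE 0.17, adjusted p = 9.36e-13). Of 8 further cadherins, 1 was higher and 4 lower (median -0.60).

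Several EMT regulators were higher in stromal-like cells than in the other large somatic classes. Of the 12 regulators, 6 were lower and 1 higher in epithelial-like than in stromal-like cells (median log2FC -1.38, all genes 0.01), beside 15.8% and 13.9% of all genes. Against stromal-like cells, 7 were lower and 1 higher in pre-granulosa-like cells (median -1.25, all genes 0.00), beside 23.3% and 24.0% of all genes. Zeb2 was at 215 ± 4.69 CPM in stromal-like, 29.2 ± 2.85 in epithelial-like and 21.1 ± 2.92 in pre-granulosa-like cells. Snai1 was at 20.2 ± 1.41, 1.69 ± 0.259 and 0.779 ± 0.271 CPM in the same order. Snai2 was at 129.9 ± 9.84, 65.1 ± 5.00 and 51.5 ± 7.37 CPM in that order, and at 10.6 ± 3.65 CPM in germ-like cells. Twist1, a mesenchymal transcription factor, was at 76.8 ± 15.5, 12.8 ± 1.38 and 2.77 ± 0.350 CPM. Twist1 was also higher in epithelial-like than in pre-granulosa-like cells (log2FC 2.17, SE 0.21, adjusted p = 1.82e-09), where 2 regulators were higher and 2 lower. Twist2 was lower in epithelial-like than in stromal-like cells (log2FC -3.24, SE 0.19, adjusted p = 1.53e-13).

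The remaining lists were also compared between the somatic classes. F11r, the junctional adhesion molecule A, was higher than in stromal-like cells in epithelial-like (log2FC 1.81, SE 0.13, adjusted p = 9.92e-12) and in pre-granulosa-like cells (log2FC 1.66, SE 0.13, adjusted p = 1.80e-11). Of 14 tight junction genes, 3 were higher and 1 lower in epithelial-like against stromal-like cells (median log2FC 0.17), where 29.7% of all genes were called. In pre-granulosa-like against stromal-like cells 6 were higher and 1 lower (median 1.06), beside 24.0% of all genes that were higher and 23.3% that were lower (47.4% in all). In epithelial-like against pre-granulosa-like cells 1 was higher and 3 were lower (median -0.25), where 44.2% of all genes were called. The shares of this list called were near or below those of all genes. Of 13 catenins and nectins the counts were 3 and 3 (median 0.04), 5 and 3 (median 0.21), and 2 and 4 (median -0.03) in the same order. Ctnnd1 (p120 catenin), which steadies cadherins at the membrane, was lower in epithelial-like than in pre-granulosa-like cells, at 38.3 ± 5.70 against 70.6 ± 7.60 CPM (log2FC -0.91, SE 0.16, adjusted p = 2.45e-05). Ctnnal1, an alpha-catenin relative, was at 55.7 ± 6.35 CPM in pre-granulosa-like, 36.6 ± 3.57 in epithelial-like and 19.95 ± 0.184 in stromal-like cells. Of 8 further cadherins the counts of higher and lower genes were 1 and 3 (median -0.19), 2 and 5 (median -1.68), and 4 and 1 (median 0.88) in that order too.

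In endothelial-like cells 4 of 14 tight junction genes were higher and 0 lower than in the soma (median 0.80, all genes -0.07), beside 19.8% and 22.0% of all genes. Cldn5, the claudin of endothelium, was at 518 ± 48.5 CPM (log2FC 9.28, SE 0.21, adjusted p = 8.97e-23), and the scaffold Tjp1 was higher too (log2FC 2.32, SE 0.12, adjusted p = 7.46e-16). Of the further cadherins 1 was higher, Cdh13 or T-cadherin, at 2.59 to 22.7 CPM in the lots (log2FC 5.37, SE 0.39, adjusted p = 3.17e-11), and 2 were lower (median -1.79). Of the catenins and nectins 6 were higher and 2 lower (median 0.28), and of the regulators 3 higher and 4 lower (median -1.14).

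In germ-like cells with Stra8 against those without, Cldn7 (log2FC -0.74, SE 0.19, adjusted p = 0.0178), Esrp1 (log2FC -0.79, SE 0.16, adjusted p = 0.00536) and the nectin Pvrl2 (log2FC -0.87, SE 0.25, adjusted p = 0.0305) were lower. Ctnnbip1, an inhibitor of beta-catenin, was higher (log2FC 0.55, SE 0.17, adjusted p = 0.0429). Tight junction genes were lower in 3 of 10 and higher in 0 (median -0.45), and catenins and nectins lower in 2 and higher in 1 of 10 (median -0.12), beside 6.75% of all genes that were lower and 7.25% that were higher (median 0.01).

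**Figure D5:**
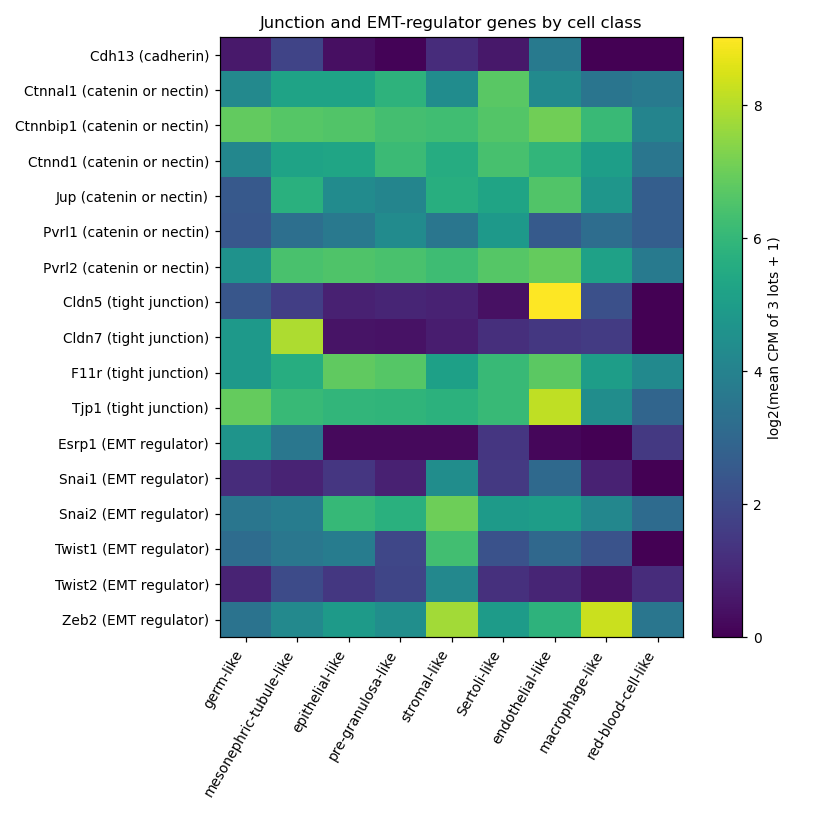
Colour gives log2(mean CPM of 3 lots + 1) of junction and EMT-regulator genes, in rows, in 9 cell classes, in columns. Cldn5 is brightest in endothelial-like cells at 518 CPM, Cldn7 and Esrp1 are brighter in germ-like and mesonephric-tubule-like cells than in the soma, and Zeb2 is at 215 CPM in stromal-like and 316 CPM in macrophage-like cells.

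Genes were ranked by how like their levels were to those of a member, as Pearson's r of log2(CPM + 1) over the 27 sums of 9 classes, among 9236 genes at 20 CPM or more in a class. For Cdh1 these were Klf5 (0.92), Glt1d1 (0.89) and Gldc (0.89), and for Epcam Klf5 (0.92), Wfdc2 (0.90) and Spint1 (0.89). Cdh2 was nearest to Ptpn13 (0.93), Khdrbs3 (0.92) and Htra1 (0.91), Cdh5 to Scarf1 (0.97), Dll4 (0.96) and Aplnr (0.96), and Cdh11 to Igfbp5 (0.92), Gpc3 (0.92) and Bicc1 (0.92). The sums of 1 lot share a library, and the values are descriptions without a test.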

How the data were processed

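The authors found barcodes with UMI-tools, aligned reads to GRCm38 with STAR 2.7, assigned them to genes with featureCounts 2.0.1 and deposited UMI counts per gene and cell, without normalization. The annotation release and strand setting are not given in the sources used here. Kept barcodes had 200 to 9000 genes and at most 10% mitochondrial UMIs. Seurat 5.3.0 (R 4.3.3) clustered them on 2000 variable genes, less 21 of the listed genes, with 50 principal components at resolution 0.8, and 11 marker lists gave the cluster names. Doublets were called with Scrublet in scanpy 1.11.5 at an expected rate of 8%.

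Counts of each class were added up within a lot wherever all 3 lots had 10 or more cells, and the 27 sums were fitted together in edgeR 4.0.16 (TMM factors, filterByExpr, quasi-likelihood test, p adjusted by Benjamini-Hochberg with a threshold of 0.05). The Stra8 sets were fitted apart, and DESeq2 1.42.0 was an alternative. The main fits had no term for the lot. Classes of 1 lot share its pool of cells, which pairs them: their deviations from the class means had a median correlation of 0.231 over 108 pairs, with 81 over 0.1. Simulated data for germ-like cells against soma (12811 genes) returned 97 of 100 genes changed 2-fold and 100 of 100 changed 4-fold, and 6.64% of the calls were false. The simulation gave all classes the same mean profile, changed 200 genes evenly up and down, and had no lot effect. In the data 76.8% of genes were called in this comparison and the lots pair the sums, so these rates may not hold there. Other alternatives were clustering resolution, cell filters, doublet removal, the lot as a block and leaving out each lot. The 3′ counts are not per length, so levels are compared within a gene only.

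Listed genes were named when among the 3 highest or 3 lowest called changes of a comparison at 10 CPM or more, and some items are not reported here. The members and lists were chosen with earlier results of these data known.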

Additional observations from a re-analysis of the deposited data

How the results depend on the processing

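Of 548 log2 fold changes of members recomputed under the alternatives, 505 kept their direction and their side of the threshold, 18 gained and 15 lost a call, and 10 changed sign. The replicate block (the lot as a term) gave 6760 genes called between epithelial-like and stromal-like cells and 3068 between the Stra8 sets, with -0.72 for Cdh1 and -0.60 for Epcam there, and beyond the members named in the report it changed no other call. Leaving out 1 lot gave 2336 to 3693 genes between epithelial-like and stromal-like cells, 3518 to 5231 for endothelial-like cells and 322 to 1433 for the Stra8 sets. In the Stra8 sets it gave -0.89 to -0.48 for Cdh1, -0.64 to -0.56 for Epcam, 0.81 to 2.34 for Cdh2, -0.037 to 0.094 for Cdh11 and -0.086 to 0.045 for Ctnnb1, and -0.20 to 0.38 for Cdh5 in germ-like cells. Cdh2 came to -0.30 at clustering resolution 0.4 and -0.31 without stromal-like cluster 2 between epithelial-like and stromal-like cells, and to 0.093 and 0.084 between pre-granulosa-like and stromal-like cells, where both ended the call. These settings are not separate checks. The large cluster left unnamed at resolution 0.4 shares the leading genes Ngfr and Rprml with cluster 2, so both may drop many of the same cells. For the Stra8 sets, removing doublets gave -0.78 for Cdh1, -0.58 for Epcam, -0.41 for Cdh11 and 0.036 for Ctnnb1. No low-count filter gave -0.54 for Epcam and 0.038 for Ctnnb1, no normalization factors -0.56 and 0.020, and a stricter cell filter -0.62 for Epcam. Without normalization factors the share of called genes that were higher went from 46.8% to 36.1% between epithelial-like and stromal-like cells and from 50.7% to 40.6% between pre-granulosa-like and stromal-like cells. This setting and the one without cluster 2 were chosen after seeing the data. The causes of these changes were not tested. Depth limits Cdh1 in the soma, Cdh5 outside endothelial-like cells and the cells without Stra8, where single UMIs set the values.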

Other observations

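Cadherins and claudins outside the 7 genes were also measured in the smaller classes. Mesonephric-tubule-like cells had the kidney cadherin Cdh16 at 94.6 ± 44.0 CPM (mean ± SD over 3 lots), Cldn7 at 241 ± 123, Cldn6 at 108 ± 42.7 and Cldn3 at 85.9 ± 27.0. Sertoli-like cells had Cdh23 at 24.7 ± 8.69 CPM and Cldn11, a claudin of the testis barrier, at 29.6 ± 7.64, while mesonephric-tubule-like cells had Cldn11 at 43.6 ± 19.6 CPM. Germ-like cells had Cdh15 at 6.51 ± 0.766 CPM and the epithelial transcription factor Ovol2 at 9.88 ± 1.95. These genes were chosen after their values were seen.

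Among the 3 unnamed clusters, cluster 12, with Pax8 and Aldh1a3 among its leading genes, had Cdh2 at 28.96 ± 4.31 and Cdh11 at 27.0 ± 3.82 CPM. Cluster 14, with Insl3 and Cyp11a1 among its leading genes, had Cdh11 at 157 ± 57.9 and Cdh2 at 16.2 ± 4.85 CPM. Cluster 13, with a median of 2665 UMIs per cell, had Cdh2 at 86.0 ± 16.5 CPM.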
